A study of Homo sapiens with 4 samples.

Results

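Late-numbered 5p miRNAs are the microRNAs whose human name starts with hsa-miR-, has a first number of 1200 or higher and ends in 5p. In the miRNA sequencing table of U-251 cells, 226 of 746 listed names met this rule, which reads the name and uses no count. They were set beside the 177 names that start with hsa-miR-, are numbered below 400 and end in 5p. Let-7 names do not start with hsa-miR- and lie in neither set, and let-7a-5p alone had 11678160 counts over the 4 libraries. The U-251 line was established from a human glioma. All 4 libraries formed a single group of wild-type cells, grown in DMEM with 10% FBS, given the vehicle DMSO and labelled biological replicates 1 to 4. The study describes the sequenced cells as being in the basal state. With a single group, no test between conditions was made. Each library held between 12363104 and 13214969 estimated counts.

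Late-numbered 5p miRNAs held 0.0585% ± 0.0116 (SD, n = 4) of the counts, against 35.5% ± 3.29 (SD, n = 4) for the 5p names below 400. Neither share includes let-7. Of the 226 names, 38 reached 10 counts in every library (16.8%, against 37.5% over all 746 names). Within the set, miR-3200-5p, miR-1304-5p and miR-1301-5p alone held 40.9% of the counts of the whole set. No late-numbered miRNA with 10 counts in every library reached the median level of the 5p names below 400 in any library. The names numbered from 6700 to below 7000, a range chosen with earlier results known, stood out by position. Of their 44 placed hairpins 40 lay at the end of an intron, and none of these 53 names had 10 counts in every library.

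A miRNA is cut from a hairpin RNA, and each of the hairpin's arms can give a mature strand of about the length of a short primer. The strand from the 5′ side is named 5p and the one from the 3′ side 3p. In the usual route the nuclease Drosha frees the hairpin in the nucleus and Dicer cuts it in the cytoplasm, after which 1 strand is loaded into an Argonaute protein. The seed, bases 2 to 8 of the mature strand, pairs with target mRNAs, so miRNAs with one seed can share targets. Some hairpins, called mirtrons, are freed by splicing because their ends are the ends of an intron. Numbers are given to miRNAs in the order of their registration, so a high number marks a name registered late, mostly from deep sequencing.

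The sequences of the most abundant late-numbered 5p miRNAs are shown first, because the levels below turn on them. RefSeq, on build GRCh38.p14, held a mature sequence for 207 of the 226. Sequences are written 5′ to 3′ with the seed in capitals, in the order of the summed count.
miR-3200-5p: aAUCUGAGaaggcgcacaaggu
miR-1304-5p: uUUGAGGCuacagugagaugug
miR-1301-5p: cGCUCUAGgcaccgcagca
miR-3065-5p: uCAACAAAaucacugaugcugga
miR-3173-5p: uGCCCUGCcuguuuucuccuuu
miR-1271-5p: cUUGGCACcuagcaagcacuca
miR-2116-5p: gGUUCUUAgcauaggaggucu
miR-4804-5p: uUGGACGGuaagguuaagcaa
miR-3679-5p: uGAGGAUAuggcagggaagggga
These 9 sequences carry 9 different seeds. The fifth by summed count was miR-1296-5p.

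Their positions on GRCh38.p14 were as follows. The mature miR-3200-5p lies at chr22:30731569-30731590 on the plus strand, in an intron of OSBP2, which encodes an oxysterol-binding protein. The sequence of miR-1304-5p lies at chr11:93733724-93733745 on the minus strand, and an intron of the DNA methyltransferase gene DNMT3A holds miR-1301-5p at chr2:25328689-25328707 on the minus strand. The mature miR-3065-5p lies at chr17:81125886-81125908 on the plus strand, opposite the hairpin of miR-338. An intron of DICER1, the gene of the Dicer nuclease itself, holds miR-3173-5p at chr14:95137961-95137982 on the minus strand. The sequence of miR-1271-5p lies at chr5:176367960-176367981 on the plus strand. An intron of MYO1E, a myosin gene, holds miR-2116-5p at chr15:59171229-59171249 on the minus strand. The importin gene TNPO1 holds miR-4804-5p in an intron, and the glycosyltransferase gene MGAT5 holds miR-3679-5p at chr2:134127130-134127152 on the plus strand.

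Which arm the counts of a 5p name came from was not tested, and measurements that bear on it are given here before the levels. RefSeq lists a 3p strand for 196 of the 226 late-numbered 5p miRNAs, but the table lists a 3p name for 7 of them, and over all numbers it holds 538 names of the 5p arm and 18 of the 3p arm. In 7 cases a library had a value for both arms of a late-numbered hairpin. The values were equal in 6 of the 7 cases and differed by 1 count in the other. In replicate 2, miR-3922-5p and miR-3922-3p each had 23 counts. In replicate 3, miR-3680-5p and miR-3680-3p each had 15 counts. The sequences of these arms differ, as shown for both hairpins.
miR-3922-5p: uCAAGGCCagaggucccacagca
miR-3922-3p: uCUGGCCUugacuugacucuuu
miR-3680-5p: gACUCACUcacaggauugugca
miR-3680-3p: uUUUGCAUgacccugggaguagg
The remaining equal pairs were of miR-7110 with 7 counts in replicate 2, of miR-4789 with 8 counts in replicate 4, and of miR-6509 with 3 counts in replicate 3 and 4 counts in replicate 4. In replicate 1, miR-6509-5p had 6 counts and miR-6509-3p had 5. All levels below are therefore levels of a name in the table, not of a strand shown to come from the 5′ side.

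Cells of the table without a value were blank, and a blank was taken as 0 counts. Late-numbered 5p miRNAs had a value in all 4 libraries for 47 names, in 3 for 28, in 2 for 40, in 1 for 62 and in none for 49. Over all 746 names, 41.4% had a value in all 4 libraries. Blank cells also met high values. For miR-1301-5p, replicate 2 held 1229 counts and replicate 3 held 1174, while its cells for the other libraries were blank. Among the names below 400, miR-24-1-5p had 104745, 98131 and 97326 counts in replicates 2, 3 and 4 and a blank in replicate 1, and it is named here because of these values. Of the 130 late-numbered names with a value in some libraries but not all, 52 had a mean of at least 10 over the libraries that listed them, and 2 had a mean of at least 100. The median of these 130 means was 8 counts. For the 62 names listed in 1 library the median was 6 counts and the highest 38. Whether a blank stood for no reads was not tested.

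The labelled cell type was checked against marker miRNAs. Of 5 miRNAs taken as glial or glioma markers, 4 were listed. Together they had between 68507 and 114157 CPM (counts scaled so that each library sums to 1000000). By name, miR-21-5p had 20905 to 55463 CPM, miR-125b-5p 35783 to 43357, miR-9-5p 10591 to 20233 and miR-10b-5p 308 to 721. Whether these levels are particular to glioma cells was not tested. The markers not listed were miR-222-3p, miR-124-3p, miR-128-3p, miR-223-3p and miR-133a-3p. All are 3p names, of which the table holds 18 against 538 of the 5p arm, so their absence does not show a low level. Among those listed, markers of other cell types were lower. Of 3 neuronal markers 1 was listed, with 5.18 to 18.1 CPM, and 2 of 3 erythroid markers had values that summed to between 121 and 217 CPM, while miR-451a had none. White blood cell markers summed to 1.06 to 2.9 CPM, the liver marker miR-122-5p to 10.1 to 35.8 CPM and muscle markers to at most 1.44 CPM. Their part in the levels of the late-numbered miRNAs was not tested.

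Detection was described by 3 limits. Of the 226 late-numbered 5p miRNAs, 38 reached 10 counts in every library (16.8%), against 37.5% over all 746 names. For the 5p names below 400 the count was 134 of 177 (75.7%). A value in every library was found for 47 of the 226 (20.8%), against 41.4% over all names and 78.5% of the names below 400. The gap was smaller for a value in at least 1 library, which 177 of the 226 had (78.3%), against 83.2% over all names and 96.6% of those below 400. Late-numbered names were thus listed nearly as often as all names, and fell behind where a count was asked of every library. Names are not replicates, so no test was made of these shares. A further setting, chosen after seeing the data, set aside the libraries that left a name blank. It counted no name listed in only 1 library. Under it 65 late-numbered names (28.8%) and 147 of the names below 400 (83.1%) had at least 10 counts in each library that listed them.

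Each library listed a similar number of late-numbered 5p miRNAs, between 95 and 113. In replicates 1 to 4, 67, 70, 77 and 66 of them had at least 10 counts in that library. Of the 177 names below 400, 148, 152, 148 and 148 did. Over all 746 names, 456, 456, 449 and 413 had a value in replicates 1 to 4. The lowest value listed for any late-numbered name lay between 2 and 4 counts, depending on the library. The limit for a name without counts, 3 counts, was 0.227 to 0.243 CPM in these libraries. Such limits, and the intervals given next, cover counting error only.

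Late-numbered 5p miRNAs had 5522, 8284, 8848 and 7102 counts in replicates 1 to 4. These were 0.0440%, 0.0627%, 0.0716% and 0.0557% of the library. The Wilson 95% intervals ran from 0.0429% to 0.0452% in replicate 1, from 0.0614% to 0.0641% in replicate 2, from 0.0701% to 0.0731% in replicate 3 and from 0.0544% to 0.0570% in replicate 4. Replicate 1 was the lowest and replicate 3 the highest, and no interval overlapped another with blanks taken as 0. With miR-1301-5p left out, which was chosen once its blanks were known, the shares were 0.0440%, 0.0534%, 0.0621% and 0.0557%. Replicate 4 then lay above replicate 2, and their intervals overlapped, from 0.0544% to 0.0570% and from 0.0522% to 0.0547%.

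The level of detected names, those with at least 10 counts in every library, was compared within each library. The median of the 38 late-numbered names was 3.27, 3.33, 4.61 and 3.22 CPM in replicates 1 to 4. The median of the 134 names below 400 was 414, 292, 316 and 295 CPM. The lower-numbered names were higher by 127-fold, 87.9-fold, 68.6-fold and 91.8-fold, a mean of 93.7 ± 24.2 (SD, n = 4). On the log2 scale the late-numbered median minus the other was -6.98, -6.46, -6.10 and -6.52, with a mean of -6.52 ± 0.36 (SD, n = 4). Both sets were filtered by the same count minimum, so these medians leave out names that missed it.

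The distributions met at their ends. Summed over the 4 libraries, the 38 detected late-numbered names ran from 49 to 5544 counts with a median of 175, and 7 of them had 1000 or more. The 134 names below 400 ran from 78 to 1956788 counts with a median of 16918, and 113 had 1000 or more. Of these 134, 90 (67.2%) lay above miR-3200-5p, the most abundant late-numbered name, and 6 (4.48%) lay below the median detected late-numbered name. The plot of summed counts by rank shows both sets.

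**Figure D1:**
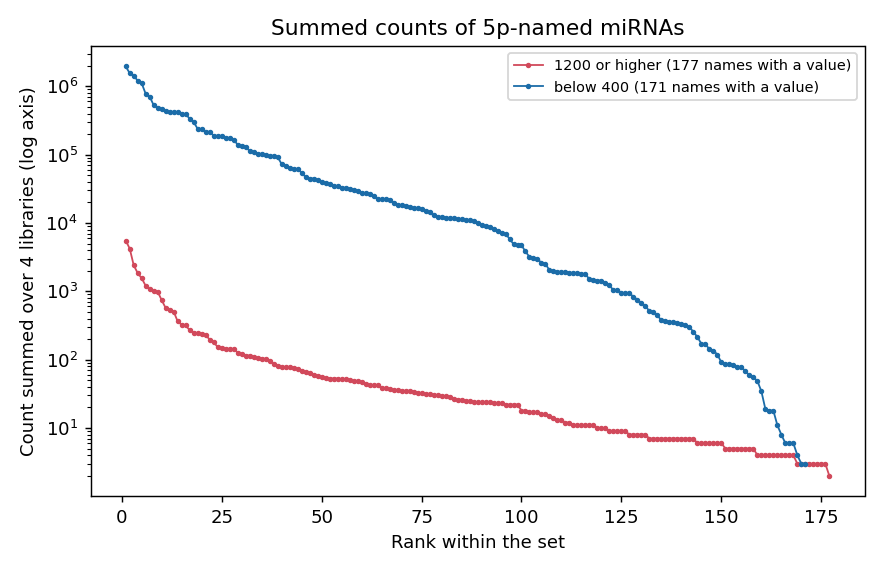
Count summed over 4 libraries (log axis) against rank within the set, for 5p names numbered 1200 or higher (177 names with a value) and below 400 (171 names with a value). The late-numbered curve starts at 5544 counts, below 90 of the detected names under 400.

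The counts of the late-numbered set were concentrated in few names. All 226 names together had 29756 counts over the 4 libraries. The top name held 18.6% of them, the top 3 held 40.9%, the top 10 held 69.1% and the top 20 held 81.3%. In replicates 1 to 4 these same 3 names held 30.5%, 42.7%, 48.4% and 37.3%, lowest in the libraries where miR-1301-5p was blank. The 38 detected names held 78.6%, and the 139 names with a value that missed the minimum held 21.4%.

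The most abundant late-numbered 5p miRNA was miR-3200-5p, with 782, 1251, 1795 and 1716 counts in replicates 1 to 4, or 109 ± 38.1 CPM (SD, n = 4). It ranked 139 among all names by summed count. Replicate 1 was the lowest, and the variance between libraries was 167 times that of counting alone. The next, miR-1304-5p, had 904, 1060, 1317 and 936 counts, or 83.1 ± 16.1 CPM (SD, n = 4), and ranked 146. Its mature sequence matched the genome exactly at 5 places while RefSeq places 1 gene, so reads from the other places, if transcribed, could carry its name. The third, miR-1301-5p, was described above with its blank cells and ranked 158.

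Hosts and partners differ among the following names. The counts of miR-3065-5p were 408, 462, 419 and 557, or 36.3 ± 5.05 CPM (SD, n = 4). Those of miR-1296-5p were 314, 439, 409 and 390, or 30.5 ± 3.83 CPM. For both, the highest library lay less than 1.5 times above the lowest. The DICER1 intron miRNA miR-3173-5p had 262, 288, 354 and 298 counts, or 23.7 ± 3.46 CPM. For miR-1271-5p the counts were 161, 369, 275 and 260, or 20.9 ± 6.23 CPM, with replicate 2 at over 2 times replicate 1. The remaining names of the top 10 were close together. In turn, miR-2116-5p had 225, 226, 274 and 287 counts, miR-4804-5p had 236, 242, 259 and 250 counts, and miR-3679-5p had 156, 186, 206 and 194 counts. The steadiest was miR-4804-5p, with 19.4 ± 1.15 CPM (SD, n = 4), a spread no larger than that of counting, since the variance was 0.862 times the counting variance.

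Below the top 10, miR-2355-5p, from an intron of the transcription factor gene KLF7, had 199, 204 and 166 counts in replicates 1, 2 and 4 and a blank in replicate 3. In an intron of DDX5, which encodes an RNA helicase, miR-3064-5p had 83, 159, 142 and 158 counts, with replicate 1 lowest. The collagen gene COL5A2 hosts miR-3129-5p, which had 106, 113, 96 and 47 counts, with replicate 4 lowest. Both names were therefore detected in every library with 1 library apart from the rest. The sequence of miR-4783-5p is 85.7% G and C, and it had 24, 85, 73 and 67 counts, the lowest again in replicate 1. In replicates 1 to 4, miR-2277-5p had 113, 170, 105 and 118 counts. An intron of RNF220, a ubiquitin ligase gene, holds miR-5584-5p, which had 63, 78, 94 and 90 counts, and an intron of LYRM4 holds miR-3691-5p, which had 79, 70, 98 and 70 counts. None of these 3 had a blank cell. In contrast, miR-3928-5p had 90, 88 and 92 counts in replicates 2 to 4 and a blank in replicate 1. The last of the 20, miR-3934-5p, had 42, 49, 75 and 74 counts. Only 1 of the detected names, miR-10523-5p, had a number of 7000 or higher, with 53 counts in all, and it was chosen for mention after its values were seen.

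**Figure D2:**
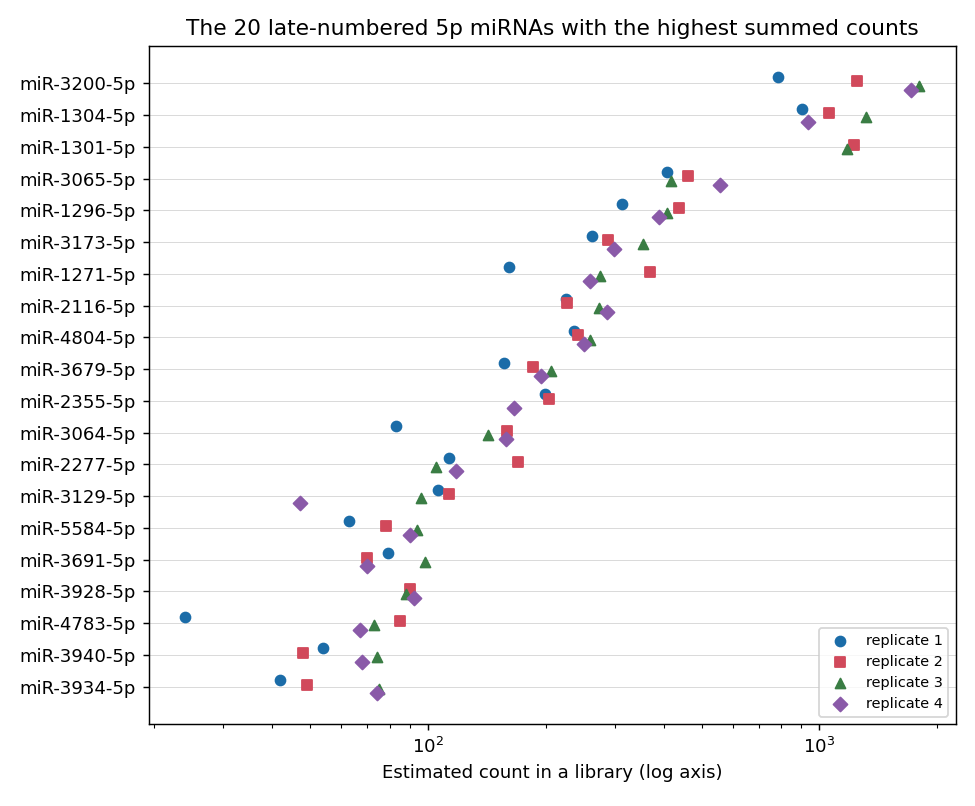
Estimated count per library (log axis) of the 20 late-numbered 5p miRNAs with the highest summed counts; each marker is 1 of the 4 replicates and a blank cell has no marker. Replicate 1 is lowest for miR-3200-5p with 782 counts, and miR-1301-5p shows markers for 2 libraries.

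The order of the 12 most abundant late-numbered names was tested between neighbours within each library. Of the 11 neighbouring pairs, 7 had values of both names in all 4 libraries, and 3 of these kept one order in all 4. Counts of miR-3065-5p exceeded those of miR-1296-5p by 0.25 ± 0.23 on the log2 scale (SD, n = 4, p = 0.125 in an exact two-sided sign-flip permutation over libraries). Those of miR-1296-5p exceeded miR-3173-5p by 0.37 ± 0.18, and those of miR-4804-5p exceeded miR-3679-5p by 0.42 ± 0.12 (same exact test, p = 0.125 for each). With 4 libraries this exact test cannot give a p below 0.125, and the lowest value after Benjamini-Hochberg adjustment over the 11 pairs was 0.458. For the top pair, miR-3200-5p was above miR-1304-5p in 3 of 4 libraries, by 0.34 ± 0.45 on the log2 scale (exact test, p = 0.25, adjusted 0.55), a mean smaller than its SD. The names were ranked on the same 4 libraries, so the order is a description. Likewise, miR-1271-5p and miR-2116-5p were each higher in 2 libraries, as were miR-2116-5p and miR-4804-5p.

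Spread between libraries was measured as the coefficient of variation (CV) of the CPM over the 4 libraries. The 38 detected late-numbered names had a median CV of 28.7%, with a range from 5.92% to 64.8%. Counting alone would give a median of 15.2%, and 6 of the 38 had a variance below that of counting. The 134 names below 400 had a median CV of 19.3%. Names of like abundance did not show one order. With a summed count of 100 to below 1000, the median CV was 29.6% for 23 late-numbered names and 20.9% for 18 names below 400. With 1000 to below 10000 it was 14.6% for 7 late-numbered names and 22.6% for 32 names below 400. Under the tagwise dispersion of edgeR, which borrows information between names, the median over the 38 was 28.1%. With at least 50 counts in every library the median CV was 18.1% for 13 late-numbered names and 18.0% for 127 names below 400, so the difference between the sets depended on the count minimum.

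Of the 38 detected late-numbered names, 16, 10, 4 and 8 had their lowest CPM in replicates 1, 2, 3 and 4, respectively, and 16 were highest in replicate 3. Over the 38, the 6 pairs of libraries gave chi-square values of 4.04 to 9.75 per degree of freedom. Over all late-numbered names with a value, blanks taken as 0, they gave 8.93 to 16.3, and the lowest values were those of replicates 2 and 3 and of replicates 1 and 4, pairs alike in listing or lacking miR-1301-5p. Each pair of libraries therefore differed by more than sampling noise, and all 4 were counted separately.

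Detection by number was followed in bands, to show whether it changed at the limit of the rule. Of the 5p names numbered 400 to below 800, 49.2% of 120 had at least 10 counts in every library, against 75.7% below 400. From 800 to below 1200 it was 57.1% of 7 names, a band too small to place a change. In the late-numbered set the share was 31.2% of 16 names below 2000, 37.5% of 8 names in the 2000s, 29.8% of 57 in the 3000s and 17.5% of 57 in the 4000s. It was 12.5% of 16 names in the 5000s, 0 of 60 in the 6000s and 8.33% of 12 names of 7000 or higher. The share of names listed in at least 1 library fell less, from 89.5% in the 3000s to 61.7% in the 6000s. By counts, names below 2000 held 0.0198% of a library on average and those in the 3000s held 0.0257%, together most of the 0.0585% of the whole set.

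**Figure D3:**
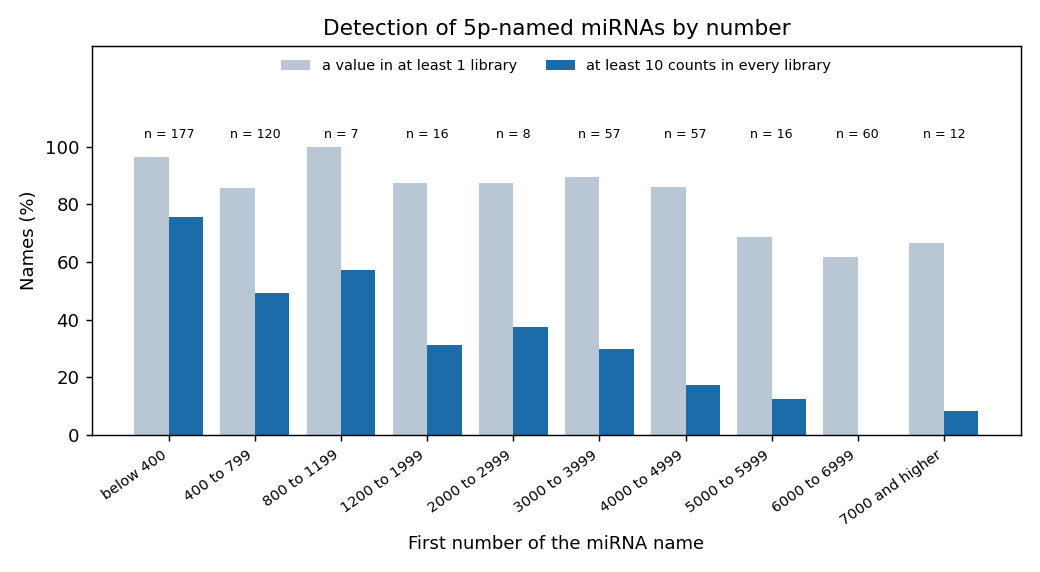
Percent of 5p names with a value in at least 1 library (grey) and with at least 10 counts in every library (blue), by the first number of the name, with the number of names above each pair. The blue bars fall from 75.7% below 400 to 17.5% in the 4000s, and there is none for the 60 names in the 6000s.

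Genome position was no part of the rule and differed between the sets. A hairpin position was found for 193 of the late-numbered names and for 151 of the 5p names below 400. Of the late-numbered hairpins, 133 (68.9%) lay in an intron of a protein-coding gene, against 49 (32.5%) of those below 400. A long non-coding RNA gene was counted as host only where no protein-coding gene overlapped the hairpin on that strand. By this order of assignment it held 7.25% of the late-numbered hairpins and 52.3% of those below 400. Another hairpin on the same strand within 10000 bases was found for 15 of the 193 (7.77%) and for 90 of the 151 (59.6%). The late-numbered names were thus mostly single hairpins in introns, while many lower-numbered ones lay in clusters. Among detected late-numbered names, 25 of 30 hairpins (83.3%) lay in a protein-coding intron and none had a neighbour in that window. No test was made, since names are not replicates.

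**Figure D4:**
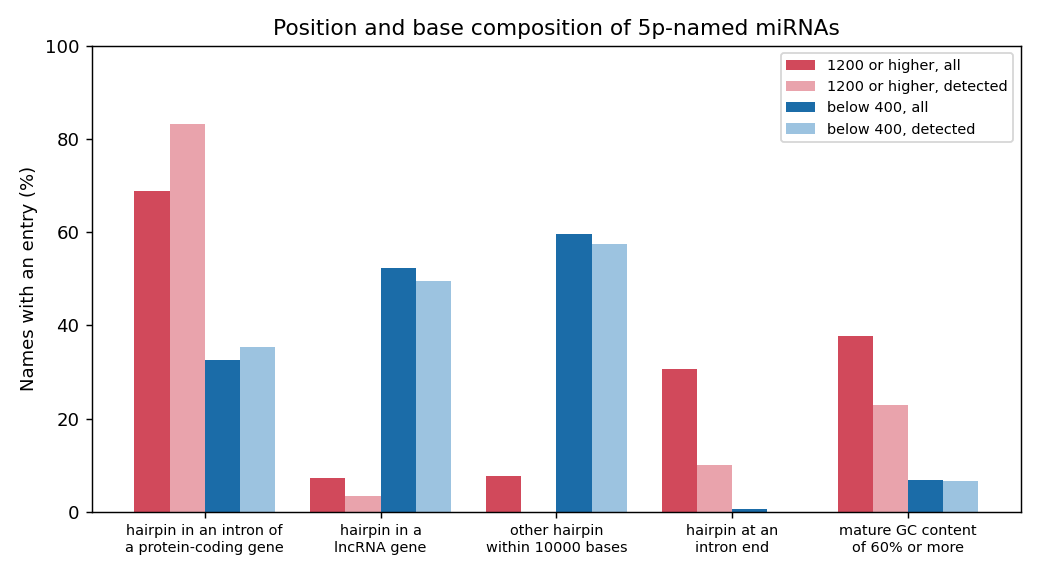
Percent of names with an entry that show each feature of position or base composition, for all and for detected 5p names numbered 1200 or higher and below 400. Late-numbered hairpins lie in protein-coding introns in 68.9% of cases, against 32.5% below 400, and those at intron ends are 30.6% of all but 10.0% of the detected.

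The end of an intron held many late-numbered hairpins. A hairpin was counted there when an end lay within 5 bases of an end of an annotated intron, the position of mirtrons. At both ends of an intron lay 3 late-numbered hairpins and at one end 56, together 30.6% of 193, against 0.662% of 151 below 400. Detection differed between these classes. For comparison, 16.8% of all late-numbered names and 37.5% of all 746 names had at least 10 counts in every library. At one intron end 2 of 56 names (3.57%) had at least 10 counts in every library, against 27 of 134 (20.1%) of those away from intron ends. The 2 were miR-3064-5p of DDX5 and miR-3940-5p of KHSRP, an RNA-binding protein gene, and the latter had 54, 48, 74 and 68 counts. Of the 3 at both ends, miR-3620-5p in ARF1, a gene of vesicle transport, was detected, with 11, 25, 37 and 31 counts. These 3 sequences are shown because they were the only detected ones at an intron end.
miR-3064-5p: uCUGGCUGuuguggugugcaa
miR-3940-5p: gUGGGUUGgggcgggcucug
miR-3620-5p: gUGGGCUGggcugggcugggcc
The mature miR-3620-5p, at chr1:228097285-228097306 on the plus strand, is 81.8% G and C and repeats the letters GGGCU. The median over the names at one intron end was 63.1% G and C, against 50% for those away from intron ends.

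Names numbered from 6700 to below 7000 made up most of the class at intron ends. This range was not one of the bands above and was chosen with earlier results of these data known. Of these 53 names, 44 had a hairpin position and 40 of the 44 lay at an intron end. A value in at least 1 library was found for 32 of the 53, and their counts summed to 627 over all libraries. The highest single value was 60 counts, of miR-6716-5p in replicate 2, whose hairpin lay away from intron ends. Their median content of G and C was 63.6%. At this depth none of the 53 had 10 counts in every library, against 16.8% of the late-numbered set and 37.5% of all 746 names.

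Base composition followed detection among the late-numbered names. The median content of G and C was 52.2% for 35 detected names with a sequence, 56.5% for 127 names listed but not detected and 60.9% for 45 names never listed. Over all 207 sequences it was 54.5%, against 45.5% for 159 names below 400. A content of 60% or more was found for 78 late-numbered names (37.7%) and for 11 of those below 400 (6.92%), and among detected late-numbered names for 8 (22.9%). Length did not rank the classes in the same way. Of the detected sequences 91.4% were 20 to 23 bases long, against 84.3% of those listed but not detected and 86.7% of those never listed. Over all late-numbered sequences the share was 86.0%, against 95.0% of the lower-numbered ones. Base composition, intron position and number varied together across these names, and their separate parts in detection were not tested.

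**Figure D5:**
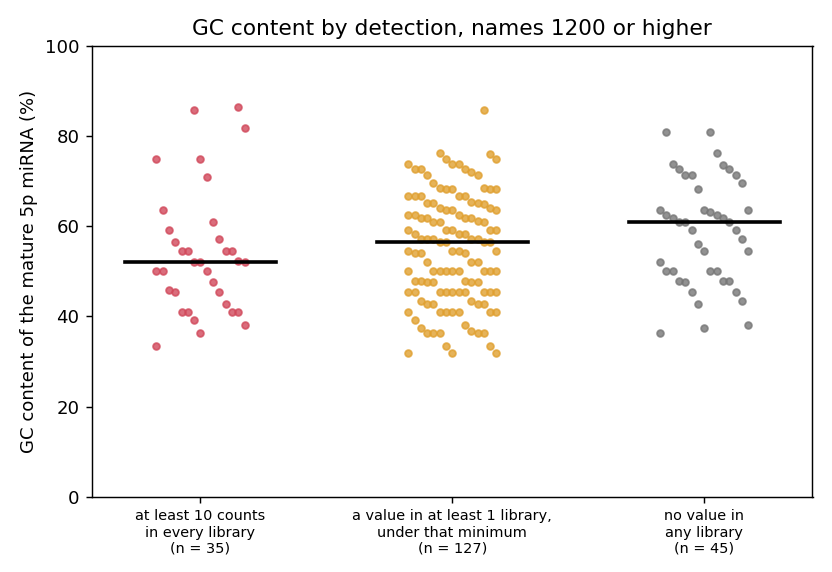
Content of G and C of the mature sequence (%) for late-numbered 5p names by detection, each point 1 name and each bar the median. The median rises from 52.2% for the 35 detected names to 60.9% for the 45 names never listed, with wide overlap between classes.

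Some hairpins lay on opposite strands of one place. Of 193 late-numbered hairpins, 13 overlapped another hairpin on the other strand. Some of these faced another hairpin of the same name, as for miR-3130-5p and miR-3158-5p. Among the 13, miR-3065-5p was detected and held 99.4% of the counts of its pair, with 1846 counts in all against 11 for miR-338-5p. The mature miR-3065-5p overlaps the 3p strand of miR-338 by 22 bases, and the sequences are shown because they are read from opposite strands of the same bases.
miR-3065-5p: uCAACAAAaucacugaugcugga
miR-338-3p: uCCAGCAUcagugauuuuguug
The 3p strand of miR-338 was not analysed here, and whether counting used the strand of reads is not given in the sources used here. Other pairs went the other way. Opposite miR-24-1, miR-3074-5p had 7, 27.5, 18 and 12 counts, or 0.0215% of its pair, with the replicate 1 blank of miR-24-1-5p taken as 0. Opposite miR-214, miR-3120-5p had 10, 13 and 29 counts in replicates 1 to 3 and a blank in replicate 4, or 7.82% of its pair, and opposite miR-423, miR-3184-5p had 5 counts in replicate 3 alone. These 3 names missed the count minimum and were chosen for mention as the pairs with values on both strands.

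Shared seeds were rare in the late-numbered set. The 207 sequences held 200 distinct seeds, and 7 seeds were shared by 14 late-numbered names. A seed was shared with a listed 5p name below 400 for 3 of them, of which miR-1271-5p alone was detected. Its partner is miR-96-5p, and both sequences are shown for the common seed.
miR-1271-5p: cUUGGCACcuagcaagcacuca
miR-96-5p: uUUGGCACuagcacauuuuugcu
The counts of miR-96-5p were 7571, 7607, 6854 and 5338, many times the 161 to 369 of miR-1271-5p in every library. The others, miR-3529-5p with the seed of miR-379-5p and miR-2682-5p with that of miR-34b-5p, had 4 and 3 counts in replicate 2 alone. Only 18 names of the 3p arm were listed, so partners on unlisted 3p strands could not be found. With names of any kind counted, 28 of the 207 shared a seed with another listed name, the 14 included. Of these, miR-3679-5p of the top 10 had the seed of miR-1185-5p, which had 916.5, 1373, 1427 and 1196 counts. The seed of miR-3184-5p was also that of miR-423-5p on the strand opposite to it.

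Identical sequences limited what a name could show. The mature sequences of miR-3689a-5p and miR-3689b-5p are the same.
miR-3689a-5p: uGUGAUAUcaugguuccuggga
miR-3689b-5p: uGUGAUAUcaugguuccuggga
The name miR-3689a-5p had 31 counts in replicate 2 and 23 in replicate 3, and miR-3689b-5p had 29 in replicate 1, so the names had no library in common. Reads of such copies cannot be told apart by sequence. More exact matches in the genome than RefSeq genes placed for the name were found for 12 late-numbered sequences, 1 of them detected, namely miR-1304-5p. For 5 late-numbered names another RefSeq hairpin also held the sequence. The sequence of miR-6516-5p, with 13 and 9 counts in replicates 1 and 4, lies inside the small nuclear body RNA SCARNA16. These names of copies were chosen after their values were seen.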

How the data were processed

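miRNA sequencing of 4 libraries of U-251 cells was analysed. The authors trimmed adaptors with Trimmomatic, used Bowtie for mapping to hg38 and miRDeep2 for counting. The deposited values are unnormalized and were handled as estimated counts, since 40 names have values that are not whole. The submitters' processing notes also name bcl2fastq 2.20 and Picard. The labels describe capture of polyadenylated RNA and random primers, while the study's methods name a miRNA library kit. The miRNA annotation release is not given in the sources used here.

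Members and lists were chosen with earlier results of these data known. Blank cells were taken as 0 counts. CPM used the library total, and the count minimum was 10 in every library. Named miRNAs were the 20 members with the highest summed count and detected members at both intron ends or opposite another hairpin. Also named were detected members sharing a seed with a name below 400 and detected members with 1 library apart. The 3 most abundant members that missed the minimum were named too, and each missed it through blank cells taken as 0. A few more were picked with their values known, as the text says.

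Sequences came from RefSeq (GRCh38.p14) and hosts from GENCODE release 44. Exact matches were searched on 24 chromosomes. Shares have Wilson intervals. The exact sign-flip test and the CV were tested on simulated data. Python 3.11.15, pandas 2.3.3, numpy 2.4.6, scipy 1.17.1, matplotlib 3.10.9 and, on rounded counts under R 4.3.3, edgeR 4.0.16 and DESeq2 1.42.0 (scaling factors) were used. Alternatives covered scaling, the minimum, the denominator, the number limit and leaving out each replicate. P-values and SDs measure the spread between these 4 libraries alone.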

Additional observations from a re-analysis of the deposited data

Results flagged for a closer look

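In 3 detected late-numbered 5p miRNAs 1 library stood apart from the others, by the ratio of its gap to the whole range (Dixon's ratio). For miR-3064-5p the ratio was 0.843, with replicate 1 at 6.62 CPM and the others at 11.5 to 12.4 CPM. For miR-3129-5p it was 0.838, with replicate 4 at 3.69 CPM and the others at 7.77 to 8.55 CPM. For miR-3192-5p, in an intron of the RNA polymerase subunit gene POLR3F, it was 0.959, with 33, 34, 15 and 33 counts and replicate 3 at 1.21 CPM against 2.57 to 2.63 CPM. A different replicate was apart in each. Of 41 results tested, chance at 1 in 20 would give 2.05 such cases, and 3 were found.

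Late-numbered names of other arms lay outside the comparisons. Of 11 late-numbered 3p names, 7 had more than 3 counts in a library, and these 11 names had 182 counts in all. The 146 late-numbered names without an arm had 27823 counts over the 4 libraries, close to the total of the late-numbered 5p names.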

How the results depend on the processing

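The late-numbered names stayed below the names under 400 in detection and in median level in all alternatives run for these measures. With a value in any library as the limit, 177 late-numbered names were detected and the difference to the names below 400 was 18.3 percentage points, against 38 names and 58.9 points. With 10 CPM in every library 9 were detected. Another setting, chosen after seeing the data, took blanks as missing and counted no name listed in only 1 library. With it 65 were detected and the difference was 54.3 points. The share of counts of 0.0585% was 0.158% without Let-7 in the denominator, 0.0387% for names of 2000 or higher and, in settings chosen after seeing the data, 0.0346% without the top 3, 0.0538% without miR-1301-5p and 0.0693% ± 0.00741 (SD, n = 4) with blanks replaced by the mean of the libraries that list a name. The median level of 3.61 CPM was 2.7 CPM with 1 count as the minimum, and the median CV of 28.7% was 18.1% with 50 counts. The log2 difference stayed at -6.52 under the scaling factors of edgeR and DESeq2. This was fixed in advance, because a factor shared by all names of a library cancels in the difference.

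Leaving out each replicate gave 41 to 44 detected names, differences of 57.2 to 59.6 points, shares of 0.0541% to 0.0633%, median levels of 3.04 to 3.4 CPM, log2 differences from -6.76 to -6.46 and median CVs of 20.8% to 28%. The main values of 38 names, 3.61 CPM and 28.7% lay outside these ranges. Detection was then asked of 3 libraries, so the number of names could not fall, and the names behind the medians changed with it. The number of neighbouring pairs in one order was 3 to 5, and it was highest without replicate 1 or without replicate 2, where one order was asked of 3 libraries instead of 4. Over all alternatives, 46 values of these results moved by less than the limit set for them and 14 by more. The 46 include the log2 differences under the scaling factors, which could not move. For single names 22 values moved by more than 1 SD, each time with the late-numbered counts as the denominator, a change of scale, and 88 moved by less. Among the 88, the level of miR-1301-5p, 47 CPM with an SD of 54.3, was 31 CPM without replicate 3, 31.7 CPM without replicate 2 and 62.7 CPM without replicate 1 or replicate 4.

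No paired analysis was possible because a single group holds all 4 libraries. Names of 2 or 3 counts lie at the depth limit, and neither the arm behind a 5p name nor the meaning of a blank cell was tested.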
